A study of Mus musculus with 3 samples.

Results

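The 10 genes described here are the subunits of the transcription factor NF-kB (Nfkb1, Nfkb2, Rel, Rela and Relb) and inhibitors of the pathway (Nfkbia, Nfkbib, Nfkbie, Nfkbiz and Tnip1), in mouse tumours grown from 4T1 mammary carcinoma cells. They were picked by gene symbol as a list of known pathway genes, and each symbol matched 1 row among the 55357 genes of both count matrices. The tumours were dissociated whole, single cells were captured in droplets and the 3′ ends of their RNA were sequenced, and the question was which cell populations differ when Cpt1a, a gene of mitochondrial fatty acid uptake, is depleted. One line carried a guide against Cpt1a (cell line 4T1-sgCPT1A, genotype given as CPT1A knowkdown) and the other a control guide (4T1-sgVC, genotype given as WT). Both lines were grown in female mice of 8 to 10 weeks, housed for 8 days; the guide belonged to the tumour line, and no alteration of the host mice was stated. Each group had 1 library with counts, no test between samples could be made, and every interval below is a 95% interval for counting error alone. An additional sgCPT1A sample is listed and was not used here separately, and whether the sgCPT1A counts include its reads was not known.

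NF-kB factors are dimers of Rel-family proteins that wait in the cytoplasm bound to IkB proteins. When receptors for cytokines or microbial products activate the IkB kinase complex, IkB proteins are degraded, the dimers enter the nucleus, and among the genes they switch on are those of IkB proteins themselves, which closes a feedback loop. A slower, noncanonical branch processes the p100 product of Nfkb2 and releases dimers that contain RelB.

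Nfkb1 encodes p105 and p50, Nfkb2 encodes p100 and p52, and Rel, Rela and Relb encode c-Rel, p65 and RelB, which carry the transactivation domains. Nfkbia, Nfkbib and Nfkbie encode the classical inhibitors IkB alpha, IkB beta and IkB epsilon. Nfkbiz encodes IkB zeta, a nuclear family member that also activates a subset of target genes, and Tnip1 encodes ABIN1, an adaptor that restrains signalling together with A20. On GRCm38 (annotation from GENCODE) Nfkb1 lies on chromosome 3 (135584655 to 135691547), Nfkb2 and Rela on chromosome 19 (46304320 to 46312385 and 5637483 to 5648130), and Rel and Tnip1 on chromosome 11 (23736847 to 23770970 and 54910785 to 54962917). Relb and Nfkbib lie on chromosome 7 (19606217 to 19629438 and 28758251 to 28767512), Nfkbia on chromosome 12 (55489410 to 55492647), Nfkbie on chromosome 17 (45555703 to 45563169) and Nfkbiz on chromosome 16 (55811375 to 55838899).

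Promoter windows from RefSeq (GRCm38.p6, 250 bases before to 50 bases after the transcription start) were present for 7 of the 10 genes, and a kB-type motif, GGANTTTCC, was searched on both strands. The Nfkbia and Nfkb2 windows are shown because these 2 genes, whose products bind NF-kB factors, were the members that held the motif. They also carried the largest inhibitor level and the most often higher subunit below, and a link of either to the motif was not tested. Capitals mark the motif, and both are written 5′ to 3′ in the direction of transcription.
Nfkbia, chr12:55492598-55492897, minus strand: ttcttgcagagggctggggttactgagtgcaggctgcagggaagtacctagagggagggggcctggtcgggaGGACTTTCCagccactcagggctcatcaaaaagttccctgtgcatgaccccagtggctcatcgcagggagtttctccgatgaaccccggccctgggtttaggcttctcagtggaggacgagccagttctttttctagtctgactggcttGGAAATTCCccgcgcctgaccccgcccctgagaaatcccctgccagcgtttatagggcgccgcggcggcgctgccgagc
Nfkb2, chr19:46305680-46305979, plus strand: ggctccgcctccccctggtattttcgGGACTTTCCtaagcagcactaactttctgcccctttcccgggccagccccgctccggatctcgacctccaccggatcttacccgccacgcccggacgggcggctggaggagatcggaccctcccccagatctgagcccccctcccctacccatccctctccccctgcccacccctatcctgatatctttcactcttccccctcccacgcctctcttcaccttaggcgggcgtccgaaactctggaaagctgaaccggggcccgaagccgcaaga
In the Nfkbia window the motif occurred at 2 places, the first starting 178 bases before the transcription start on the transcribed direction and the second starting 29 bases before it on the opposite strand. In the Nfkb2 window it started 224 bases before the start, and the same site fell in another of the 3 Nfkb2 windows. The motif was present in 1.25% of all 32851 windows of this length and in 1.45% of the 27025 genes with a window. The windows of Rel, Rela, Nfkbib, Nfkbie and Tnip1 did not hold these letters, and Nfkb1, Relb and Nfkbiz had no window. Only this spelling was searched, so a window without it may still hold a kB site of another spelling. A match describes the letters only.

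The sgCPT1A library held 7198 barcodes with 35557125 UMIs (median 2786 per barcode), and the sgVC library held 9890 barcodes with 155948212 UMIs (median 10809). After filters 6743 sgCPT1A cells and 9323 sgVC cells remained, and 15 cell barcodes were shared by the kept cells of both libraries. Cells were clustered and named from marker genes, so a name such as neutrophil-like stands for a cluster that expressed those markers. Neutrophil-like cells made up 76.0% of the sgCPT1A cells and 19.3% of the sgVC cells (5125 and 1797 cells), while tumour-like cells were almost all from the sgVC library (10 sgCPT1A cells and 4459 sgVC cells). With so few tumour-like sgCPT1A cells the guide could not be checked in its target cells: Cpt1a had 1 UMI there, against 2101 UMIs (17.3 CPM) in tumour-like sgVC cells. These leave out a cluster that also met the tumour markers but was set apart as Epcam-high epithelial (30 sgCPT1A and 13 sgVC cells). In it Cpt1a had 21 UMIs in sgCPT1A (32.3 CPM) and 8 UMIs in sgVC (44.8 CPM), with overlapping intervals. In neutrophil-like cells Cpt1a stood at 15.9 CPM in sgCPT1A and 7.90 CPM in sgVC. It was also higher in sgCPT1A in every other class compared below, as in fibroblast-like cells (46.3 CPM in sgCPT1A and 27.8 CPM in sgVC). The intervals overlapped in dendritic-like and pericyte or smooth muscle-like cells. Malat1, a nuclear RNA, and mt-Rnr2, a mitochondrial ribosomal RNA, were taken as signs of RNA quality within classes. In neutrophil-like cells Malat1 had 25091 CPM in sgCPT1A and 22189 CPM in sgVC (log2 ratio 0.18), and mt-Rnr2 had 13986 CPM in sgCPT1A and 15329 CPM in sgVC (-0.13). In the other 5 classes compared both were higher in sgCPT1A, by log2 ratios of 0.73 to 1.57 for Malat1 and 0.93 to 1.32 for mt-Rnr2, and their part in the results below was not tested. Comparison was limited to classes of 50 cells or more in both libraries, of which there were 6: neutrophil-like, monocyte/macrophage-like (295 sgCPT1A and 1368 sgVC cells), dendritic-like (70 and 232), T-like (553 and 851), fibroblast-like (514 and 402) and pericyte or smooth muscle-like cells (73 and 51). Levels alone are given for NK-like cells (31 and 83) and for basophil or mast-like cells (40, sgVC). The same holds for tumour-like cells (sgVC) and for the small Epcam-high epithelial cluster (30, sgCPT1A).

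Levels are given as CPM, a gene's UMIs as a share of all UMIs of the class on the usual CPM scale, where UMIs are counts of distinct RNA molecules. Each molecule is counted once at its 3′ end, so no division by gene length was made, although levels of different genes also depend on how well each 3′ end was captured.

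Among the subunits, Rel and Relb were highest in dendritic-like cells. Rel, the c-Rel gene used by lymphoid and myeloid cells, stood at 566 CPM in dendritic-like sgCPT1A cells (514 to 623) and 415 CPM in dendritic-like sgVC cells (387 to 444). These 2 were the highest of 17 class and library levels, and their intervals overlapped no neighbour. Neutrophil-like cells followed with 369.7 CPM in sgCPT1A and 234 CPM in sgVC, and fibroblast-like cells had 25.1 CPM in sgCPT1A and 26.0 CPM in sgVC. The stromal and epithelial levels of Rel, between 18.5 CPM in the Epcam-high sgCPT1A cluster and 36.6 CPM in pericyte or smooth muscle-like sgVC cells, were all below the blood-derived levels, of which basophil or mast-like sgVC cells had the lowest at 67.8 CPM with an interval that overlapped its neighbour's.

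Relb, the RelB gene of the noncanonical branch, stood at 203 CPM (172 to 238) in dendritic-like sgCPT1A cells and 166 CPM (149 to 185) in dendritic-like sgVC cells. The level was uneven within the class. Cluster 16, in which Ccr7, Fscn1 and Ccl22, genes of mature migrating dendritic cells, were among the leading genes, had 404 CPM of Relb in sgVC, against 45.1 CPM in cluster 14 of the same library. In the sgVC library Nfkbia stood at 4437 CPM in cluster 16 and 1247 CPM in cluster 14, and Nfkb2 at 194 CPM in cluster 16 and 55.4 CPM in cluster 14. Nfkbie was nearly level between them, with 76.7 and 72.4 CPM. Cluster 16 held only 27 sgCPT1A cells, and its levels in that library are not given.

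Rela, the p65 gene of the classical dimer, varied least among the subunits. Its levels ran from 27.1 CPM in basophil or mast-like sgVC cells to 84.2 CPM in dendritic-like sgCPT1A cells, and the intervals of neighbours in this order overlapped. Nfkb1 had no single leading class. It stood at 389.7 CPM in NK-like sgCPT1A cells and 290.5 CPM in NK-like sgVC cells, the levels ranked between these 2 had overlapping intervals with their neighbours, and fibroblast-like sgVC cells were among them. The lowest Nfkb1 level was 77.0 CPM in the Epcam-high sgCPT1A cluster. Nfkb2 was highest in neutrophil-like sgCPT1A cells at 227 CPM (219 to 235), above every other class and library.

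The inhibitors were led by neutrophil-like cells. Nfkbia stood at 17932 CPM (17862 to 18003) in neutrophil-like sgCPT1A cells and 13017 CPM (12883 to 13151.5) in neutrophil-like sgVC cells. The next level, in basophil or mast-like sgVC cells, was 4223 CPM, of which 544 CPM would be supplied by neutrophil RNA at the marker share described below, and tumour-like sgVC cells had 1611 CPM. Nfkbia was found in nearly every neutrophil-like cell after each cell was thinned to 1000 UMIs (99.7% in sgCPT1A and 96.9% in sgVC). The lowest share among classes of at least 50 cells was 60.8%, in dendritic-like sgVC cells.

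Nfkbiz, the IkB zeta gene, was also led by neutrophil-like cells of both libraries, at lower levels. It had 2455 CPM in neutrophil-like sgCPT1A cells and 1451 CPM in neutrophil-like sgVC cells, while every other class lay at or below the 729 CPM of NK-like sgCPT1A cells. Nfkbib and Tnip1 were also highest in neutrophil-like sgCPT1A cells, at 267 and 271 CPM, and Nfkbie stood there at 161 CPM. Fibroblast-like cells were at the low end for Nfkbib, with 21.7 CPM in sgCPT1A and 34.8 CPM in sgVC, and for Nfkbie, with 12.8 CPM in sgCPT1A and 16.3 CPM in sgVC.

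**Figure D1:**
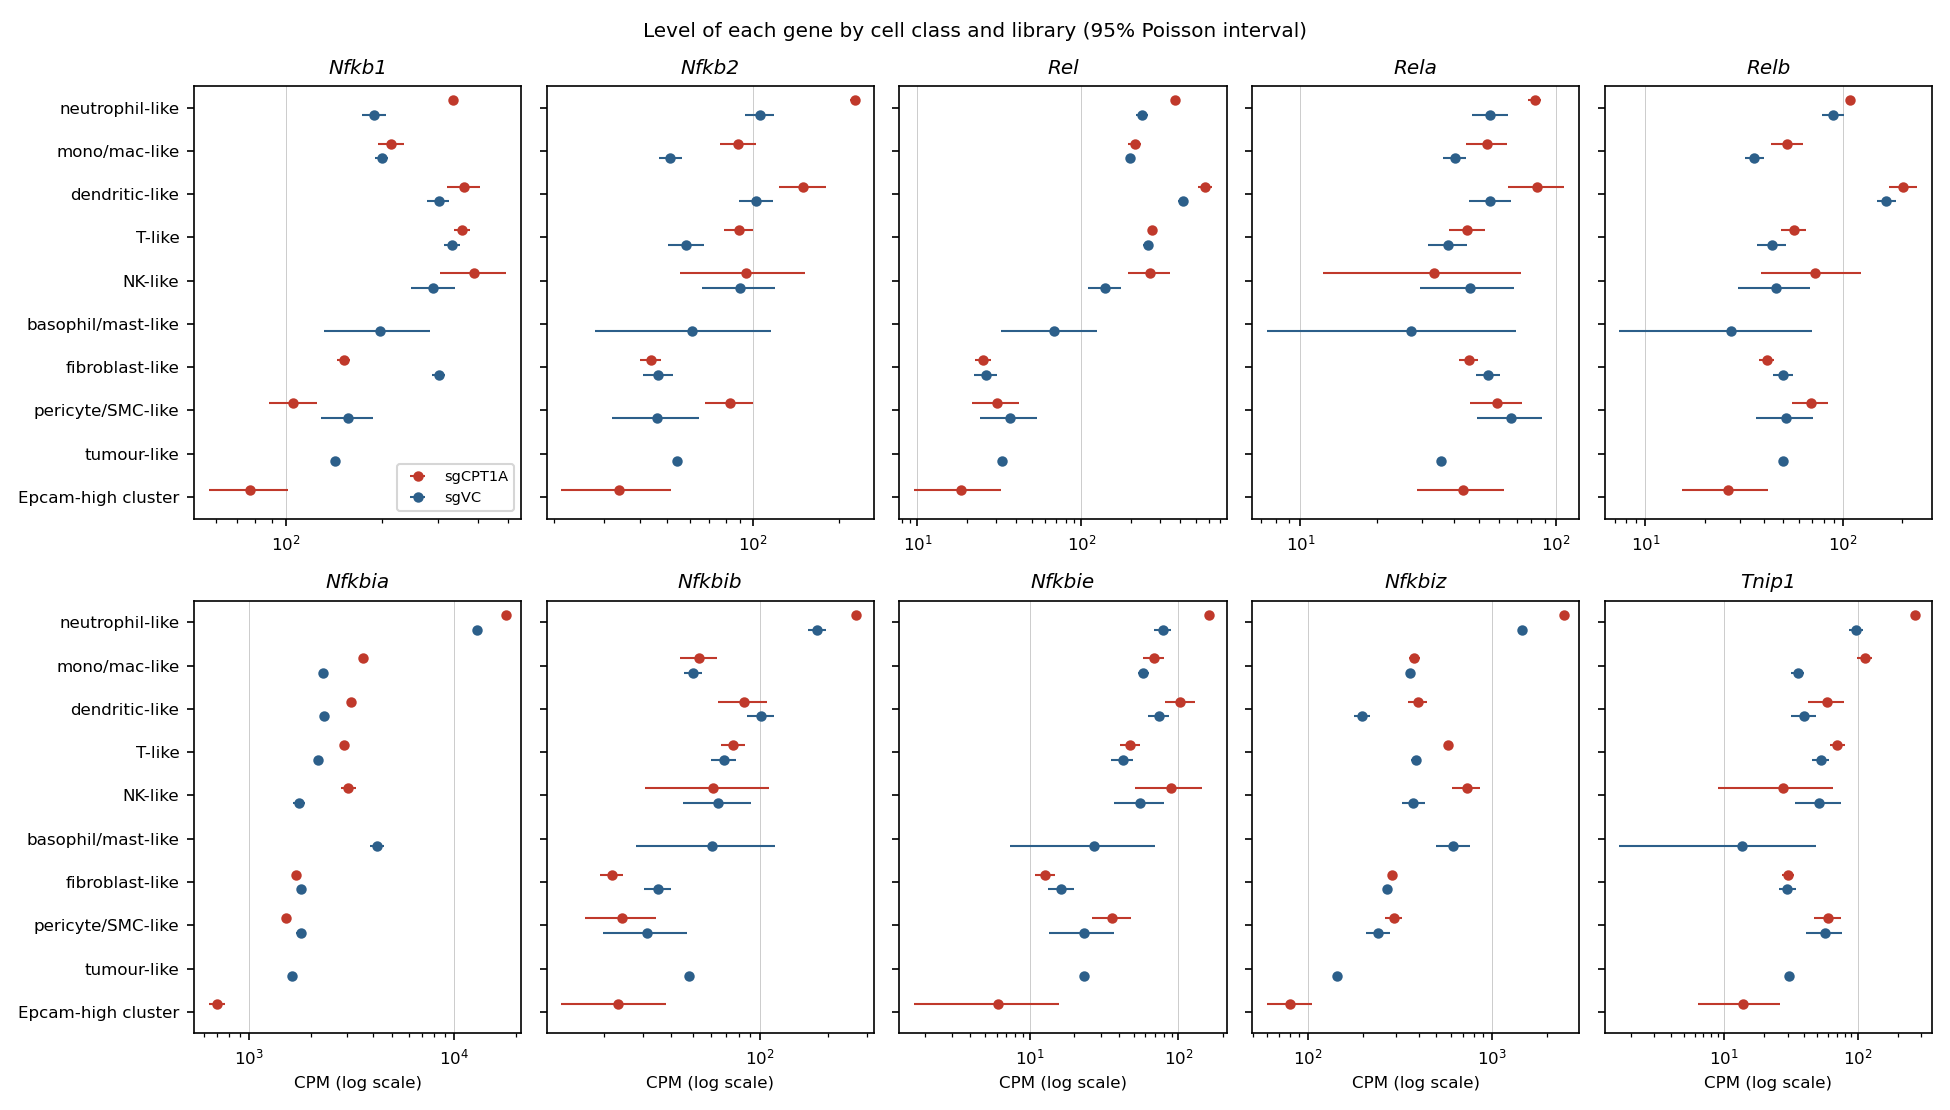
Level of each of the 10 genes (CPM, log axis) in each cell class, for sgCPT1A (red, upper point) and sgVC (blue, lower point), with 95% Poisson intervals of the UMIs. Nfkbia and Nfkbiz are highest in neutrophil-like cells in both libraries, Rel and Relb in dendritic-like cells, and Nfkb1 in fibroblast-like cells is 152 CPM in sgCPT1A and 302 CPM in sgVC.

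Between the libraries a gene was called higher or lower in sgCPT1A where its CPM differed at least 1.5-fold and both libraries together held at least 20 UMIs in the class. All 10 members had enough UMIs in each of the 6 classes. In neutrophil-like cells 6 members were higher in sgCPT1A (Nfkb1, Nfkb2, Rel, Nfkbie, Nfkbiz and Tnip1), 0 were lower and 4 lay between. Over the 9200 genes measured in these cells, 17.3% were higher and 35.9% were lower. Their median log2 ratio was -0.30, beside a median of 0.71 over the 10 members. Relative to that median gene all 10 members were at least 1.5-fold higher, where 25.5% of genes were higher and 23% lower. Under 10 alternative settings each member's ratio over the whole class stayed above 0, which did not hold within each cluster as given below. The setting that kept the 10 genes among the variable genes could not differ, since 0 of them were variable. Rel was just under 1.5-fold (0.56) with cells thinned to 1000 UMIs.

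Tnip1 had the largest ratio in neutrophil-like cells. It stood at 271 CPM in sgCPT1A and 97.7 CPM in sgVC, a log2 ratio of 1.47 (1.29 to 1.66). The share of cells with a Tnip1 UMI after thinning was 22.0% in sgCPT1A and 8.40% in sgVC, with 461 and 332 cells left out as too shallow. Tumour-like sgVC cells, the lowest class with at least 50 cells, had 2.81% at the same depth. Without thinning the neutrophil-like shares were 40.9% in sgCPT1A and 12.7% in sgVC, at median depths of 2629 and 1460 UMIs.

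The precursor genes had the largest ratios among the subunits. Nfkb2 had 227 CPM in sgCPT1A and 105 CPM in sgVC (log2 ratio 1.11, 0.94 to 1.29), and Nfkb1 had 334 CPM in sgCPT1A and 189 CPM in sgVC (0.83, 0.70 to 0.96). Rel had 369.7 CPM in sgCPT1A and 234 CPM in sgVC (0.66), Rela had 82.3 CPM in sgCPT1A and 55.3 CPM in sgVC (0.57), and Relb had 109 CPM in sgCPT1A and 89.4 CPM in sgVC (0.29). The intervals of Nfkb2 and Rel did not overlap, and Rela fell just short of 1.5-fold.

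Among the inhibitors in neutrophil-like cells, Nfkbie had 161 CPM in sgCPT1A and 78.6 CPM in sgVC (log2 ratio 1.03), and Nfkbiz had 2455 CPM in sgCPT1A and 1451 CPM in sgVC (0.76). Nfkbiz was seen in 82.2% of sgCPT1A cells and 65.5% of sgVC cells after thinning, against 12.7% of tumour-like sgVC cells, and in 92.7% and 72.0% without it. Nfkbib (0.58) and Nfkbia (0.46) lay under 1.5-fold. Nfkbia had by far the most UMIs, 245773 in sgCPT1A and 36248 in sgVC, so its interval was narrow (0.45 to 0.48).

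**Figure D2:**
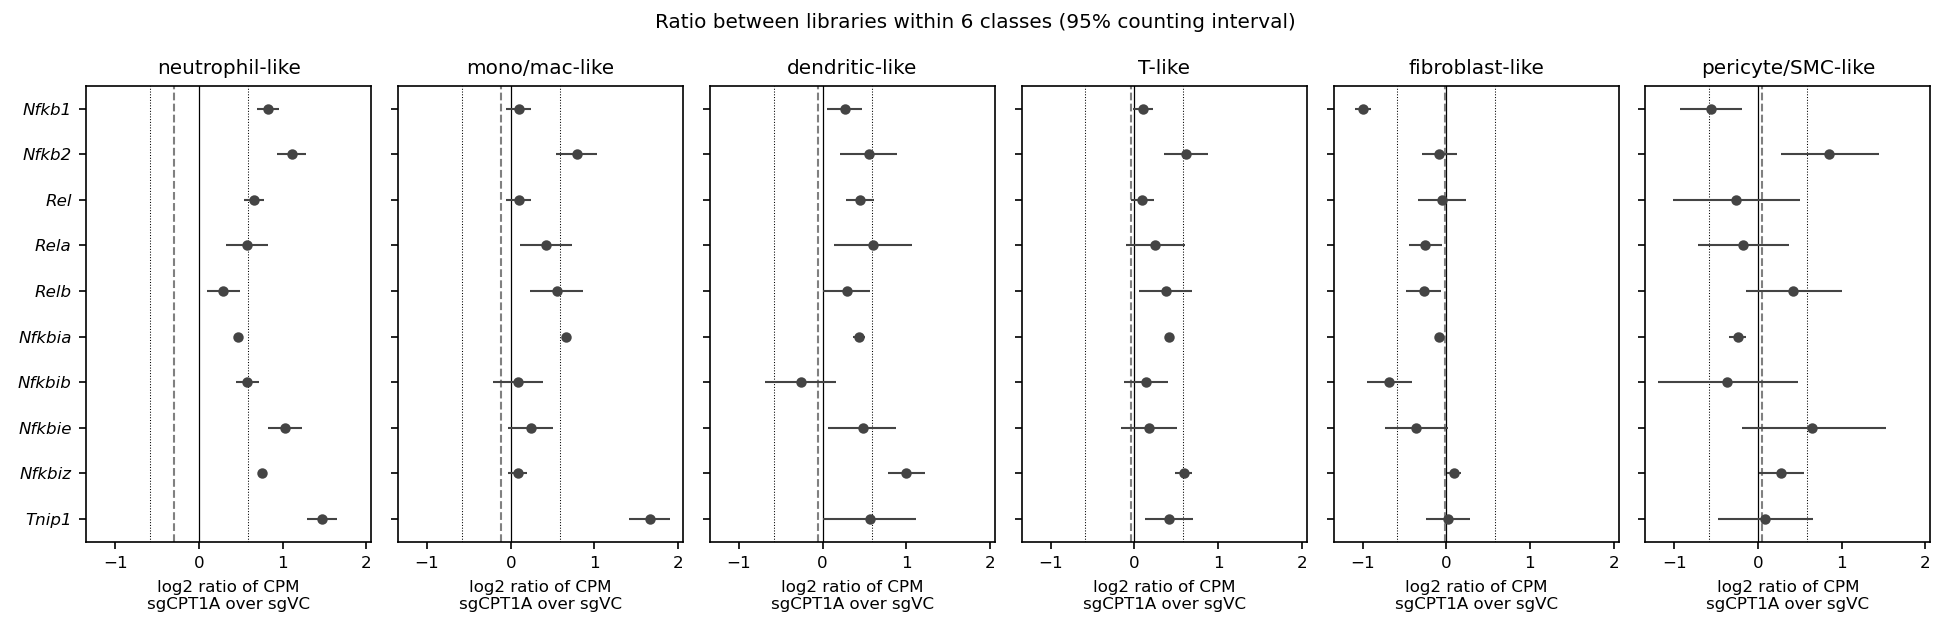
Log2 ratio of CPM, sgCPT1A over sgVC, for each gene in the 6 classes compared, with 95% counting intervals. Dotted lines mark 1.5-fold, the solid line no difference and the dashed line the median gene of the class. Neutrophil-like cells have all 10 genes to the right of 0, and fibroblast-like cells have Nfkb1 at -0.99.

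Neutrophil-like cells fell in 5 clusters, and different clusters held most of the class in each library. Clusters 1, 5 and 8 held 1792, 1154 and 849 sgCPT1A cells but 57, 80 and 30 sgVC cells. Cluster 2 held 644 sgCPT1A cells and 1100 sgVC cells, and cluster 6 held 686 and 530.

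Within clusters Nfkbia did not keep its ratio. It was 0.57 (0.54 to 0.60) in cluster 2, with 19706.5 CPM in sgCPT1A and 13279.9 CPM in sgVC, and 0.21 in cluster 5. In clusters 1, 6 and 8 it was -0.01, -0.09 and 0.08, so the pooled ratio of 0.46 was not seen there in CPM. The median gene of clusters 1, 2, 5, 6 and 8 was at -0.65, -0.24, -0.36, -0.11 and -0.69, beside -0.30 over the class. Relative to it Nfkbia was still higher in clusters 1 and 8 but nearly level in cluster 6. Ratios in this paragraph are not scaled to the median gene. Those below 0 in clusters 1, 5 and 8 all lay above the median gene of their cluster. Nfkb2 stayed above 0 in all 5 clusters (0.32 to 1.32), with an interval that included 0 in clusters 1, 6 and 8. Nfkbiz ran from 0.20 in cluster 1 to 0.99 in cluster 6, where it had 2578 CPM in sgCPT1A and 1299 CPM in sgVC. Relb, at 0.29 over the class, was 0.55 (0.22 to 0.88) in cluster 2 and below 0 in clusters 1, 5, 6 and 8 (-0.29, -0.17, -0.25 and -0.29), each with an interval that included 0. Nfkb1 was between 0.61 and 0.80 in clusters 1, 2, 5 and 6 and -0.05 in cluster 8. Rel was between 0.13 and 0.82 in clusters 1, 2, 5 and 6 and -0.21 in cluster 8. Nfkbib was below 0 in clusters 6 and 8 (-0.23 and -0.36), again with intervals that included 0, while Rela and Nfkbie were above 0 in all 5 clusters. The Rela interval included 0 in clusters 2, 5, 6 and 8, and Rela rested on 2 sgVC UMIs in cluster 1 and 2 in cluster 8. The Nfkbie interval included 0 in clusters 1, 6 and 8. Tnip1 was 1.57 in cluster 2 but -0.45 (-0.98 to 0.08) in cluster 6. In that cluster Tnip1 had 45.0 CPM in sgCPT1A and 61.7 CPM in sgVC, against 409 CPM in sgCPT1A and 204 CPM in sgVC in cluster 8. Tnip1 thus differed more between clusters of the sgCPT1A library than between the libraries as a whole.

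**Figure D3:**
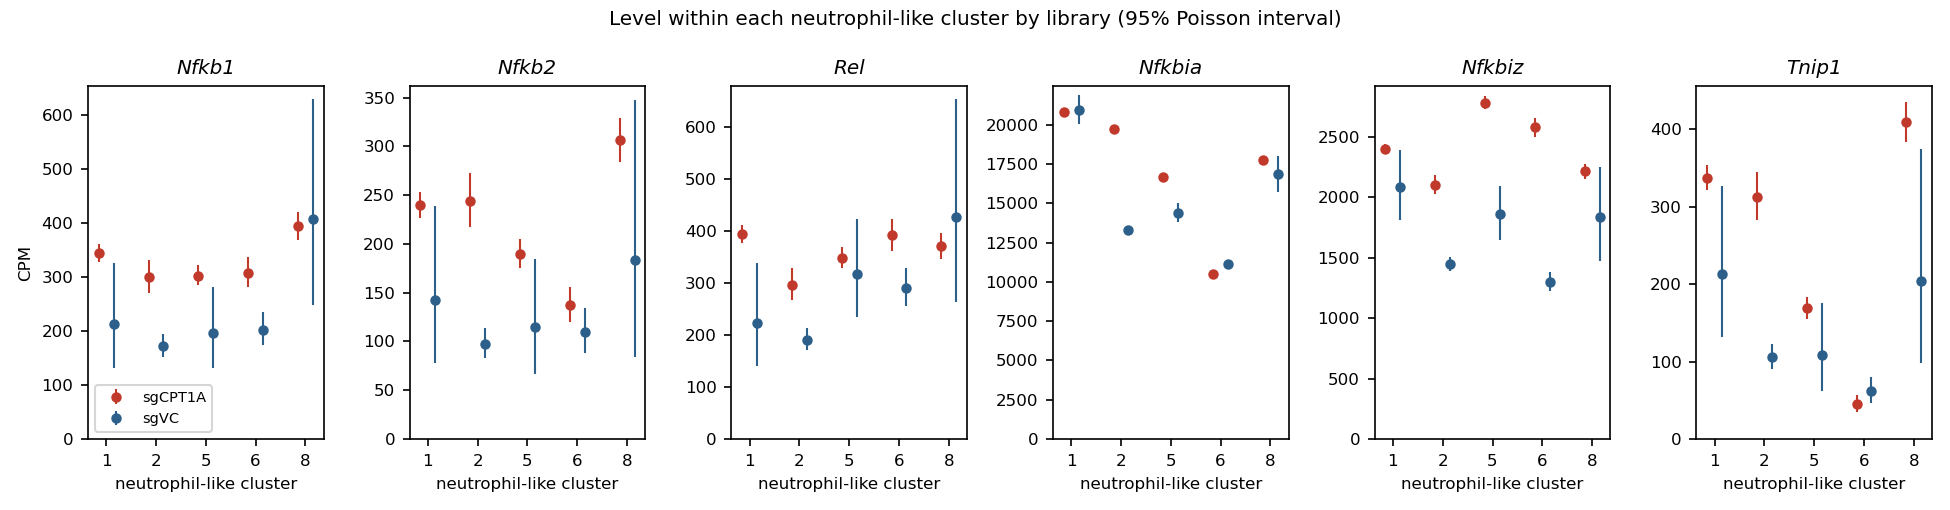
CPM of 6 genes in each of the 5 neutrophil-like clusters, sgCPT1A (red, left of each pair) and sgVC (blue, right), with 95% Poisson intervals. Nfkbia is nearly level between libraries in clusters 1, 6 and 8, and Tnip1 is low in cluster 6 in both libraries (45.0 CPM in sgCPT1A and 61.7 CPM in sgVC).

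In monocyte/macrophage-like cells 3 members were higher in sgCPT1A (Nfkb2, Nfkbia and Tnip1), 0 were lower and 7 lay between, against 15% of 11098 genes higher and 25% lower. Relative to the median gene, at -0.12, Relb joined them and 4 were higher, where 19.1% of genes were higher and 20.3% lower. Tnip1 again had the largest ratio. It stood at 113 CPM in sgCPT1A and 35.7 CPM in sgVC (log2 ratio 1.66, 1.42 to 1.90), and was seen in 12.4% of sgCPT1A cells and 3.63% of sgVC cells after thinning (40.0% and 18.3% without). Nfkb2 had 88.6 CPM in sgCPT1A and 51.2 CPM in sgVC (0.79), and Nfkbia had 3608 CPM in sgCPT1A and 2287 CPM in sgVC (0.66). Nfkb1, Rel, Nfkbib and Nfkbiz had ratios between 0.08 and 0.10 with intervals that included 0. When cells were named one by one from their own markers 8 members were higher instead of 3.

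The neutrophil markers S100a8, S100a9, Csf3r, G0s2, Cxcr2 and Retnlg were also found in the other classes, and more so in sgCPT1A. All 6 were detected in T-like and monocyte/macrophage-like cells of both libraries, while Cxcr2 was at 0 in fibroblast-like sgVC cells, Cxcr2 and Retnlg in pericyte or smooth muscle-like sgVC cells, and Retnlg in dendritic-like sgCPT1A cells. Their summed CPM in monocyte/macrophage-like cells was 4.00% of the level in neutrophil-like cells in sgCPT1A and 0.617% in sgVC. In T-like cells the share was 4.16% in sgCPT1A and 0.343% in sgVC, and in dendritic-like cells 3.76% in sgCPT1A and 0.695% in sgVC. In fibroblast-like cells it was 1.18% in sgCPT1A and 0.164% in sgVC, and in pericyte or smooth muscle-like cells 1.01% in sgCPT1A and 0.311% in sgVC. At those shares neutrophil RNA would supply 10.8 of the 113 CPM of Tnip1 in monocyte/macrophage-like sgCPT1A cells and 0.602 of the 35.7 CPM in sgVC cells. Without it the log2 ratio of Tnip1 was 1.59, that of Nfkb2 0.70 and that of Nfkbia 0.44. Nfkbia then no longer reached 1.5-fold, while Tnip1 and Nfkb2 still did. Nfkbia was also under 1.5-fold (0.54) with a general subtraction of free RNA at 5% per cell. The marker share can overstate neutrophil RNA, as the values of Cxcl2 and Il1a below show.

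In T-like cells Nfkb2 and Nfkbiz were higher in sgCPT1A, 0 members were lower and 8 lay between, against 13.3% of 10168 genes higher and 14.3% lower. Nfkb2 had 89.0 CPM in sgCPT1A and 58.1 CPM in sgVC (log2 ratio 0.61, 0.35 to 0.88), and Nfkbiz had 581 CPM in sgCPT1A and 386 CPM in sgVC (0.59, 0.49 to 0.69). Both sat just above 1.5-fold. The class had 3 clusters that were unequally filled, cluster 7 with 438 sgCPT1A and 502 sgVC cells, cluster 12 with 66 sgCPT1A and 212 sgVC cells, and cluster 13 with 49 sgCPT1A and 137 sgVC cells. Nfkbiz was under 1.5-fold in each of them (0.56, 0.50 and 0.30), and Nfkb2 was 0.51, 0.69 and 0.71. The count was 0 with neutrophil RNA subtracted, where 102 of the 581 CPM of Nfkbiz in sgCPT1A and 4.97 of the 386 CPM in sgVC stood at the marker share. It was also 0 with doublets kept, with coarser clusters, with free RNA subtracted at 5% per cell and with every cell weighing the same, and 1 with cells thinned. Nfkb1 and Rel, the main subunits of these cells, had 357 and 271 CPM in sgCPT1A and 333 and 254 CPM in sgVC, with intervals that included no difference.

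In dendritic-like cells Rela and Nfkbiz were higher in sgCPT1A, 0 members were lower and 8 lay between, against 15.4% of 8062 genes higher and 20.4% lower. Nfkbiz had 395 CPM in sgCPT1A and 198 CPM in sgVC (log2 ratio 1.00, 0.78 to 1.22). In sgCPT1A 1 cell held 12.8% of its UMIs. At the marker share neutrophil RNA would supply 92.2 CPM of Nfkbiz in sgCPT1A and 10.1 CPM in sgVC. After rescaling, 315 CPM would be left in sgCPT1A and 189 CPM in sgVC. Rela had 84.2 CPM in sgCPT1A and 55.3 CPM in sgVC (0.61, 0.14 to 1.06), from 63 and 113 UMIs. With every cell weighing the same the ratios were 0.61 for Nfkbiz and 0.29 for Rela, which then fell short of 1.5-fold. In cluster 14, with 43 sgCPT1A and 142 sgVC cells, Nfkbiz was 0.66 and Rela 0.45 (-0.26 to 1.13). With cells named from their own markers 6 members were higher, and with median scaling 4.

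Fibroblast-like cells were the class with lower members. Nfkb1 and Nfkbib were lower in sgCPT1A, 0 were higher and 8 lay between, against 16% of 13239 genes higher and 13.5% lower. Nfkb1 had 152 CPM (145 to 159) in sgCPT1A and 302 CPM (288 to 316) in sgVC, a log2 ratio of -0.99 (-1.09 to -0.90). Cluster 9, which held 427 of the 514 sgCPT1A cells and 385 of the 402 sgVC cells, gave -1.09. After thinning, 16.4% of sgCPT1A cells and 25.8% of sgVC cells had an Nfkb1 UMI, and the lowest class, pericyte or smooth muscle-like sgCPT1A cells, had 5.80%. The median depths of fibroblast-like cells were 24472.5 UMIs in sgCPT1A and 14586 UMIs in sgVC. No fibroblast-like cell held more than 1.77% of the Nfkb1 UMIs in either library. Nfkbib had 21.7 CPM in sgCPT1A and 34.8 CPM in sgVC (-0.68, -0.95 to -0.41), and it fell short of 1.5-fold when cells were named from their own markers (-0.45) or weighed the same (-0.55). With free RNA subtracted at 5% per cell 4 members were lower. Nfkbia was nearly level, with 1687 CPM in sgCPT1A and 1793 CPM in sgVC (-0.09). Tumour markers summed to 18.3 CPM in sgCPT1A and 157 CPM in sgVC in these cells. Malat1 had 10514 CPM in sgCPT1A and 6329 CPM in sgVC there, and mt-Rnr2 had 15343 CPM in sgCPT1A and 6849 CPM in sgVC. The part of these in the ratios was not tested. Tumour-like sgVC cells themselves had 142 CPM of Nfkb1.

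In pericyte or smooth muscle-like cells Nfkb2 and Nfkbie were higher in sgCPT1A, 0 members were lower and 8 lay between, against 22.9% of 8714 genes higher and 18.6% lower. Nfkb2 had 82.7 CPM in sgCPT1A and 46.1 CPM in sgVC (log2 ratio 0.84, 0.27 to 1.45). Nfkbie rested on 46 UMIs in sgCPT1A and 17 UMIs in sgVC, and its interval (-0.19 to 1.53) included no difference. Nfkb1 had 105 CPM in sgCPT1A and 156 CPM in sgVC (-0.57). Markers of other cell types differed within the class: endothelial markers summed to 415 CPM in sgCPT1A and 2012 CPM in sgVC, fibroblast markers to 11004 CPM in sgCPT1A and 2451 CPM in sgVC, tumour markers to 25.8 CPM in sgCPT1A and 578 CPM in sgVC, and 1 sgCPT1A cell held 20.4% of the Nfkbia UMIs. Their part in the ratios was not tested. The count higher was 0 with cells thinned and 8 with cells named from their own markers.

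Over the 6 classes Nfkb2 was higher in 4, Nfkbiz in 3, and Tnip1 and Nfkbie in 2 each, while Relb was called in 0 classes. In single classes 13.3% (T-like) to 22.9% (pericyte or smooth muscle-like) of all genes were higher. How many genes were higher in several classes was not computed. The T-like calls and the pericyte or smooth muscle-like Nfkbie call are included with the limits given above. Nfkb1 was the member with a call in each direction.

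The balance of inhibitors to subunits was taken as the UMIs of Nfkbia, Nfkbib and Nfkbie divided by those of the 5 subunits. It was highest in neutrophil-like cells, at 16.4 (16.1 to 16.6) in sgCPT1A and 19.7 (18.8 to 20.7) in sgVC, and the log2 ratio of -0.27 (-0.34 to -0.20) put sgCPT1A lower. Both sides of the fraction were higher in sgCPT1A, and the subunits more so: summed subunit CPM was 1122 in sgCPT1A and 673 in sgVC. Basophil or mast-like sgVC cells came next with 11.4 (8.63 to 15.2).

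Dendritic-like cells had the lowest balance, 2.45 in sgCPT1A and 2.40 in sgVC (log2 ratio 0.03, -0.10 to 0.16), with summed subunits of 1365 CPM in sgCPT1A and 1040.1 CPM in sgVC. T-like cells had 3.69 in sgCPT1A and 3.15 in sgVC (0.23, 0.14 to 0.32), and NK-like cells had 3.76 and 3.05 with overlapping intervals. The T-like balance was 4.00 in sgCPT1A and 3.30 in sgVC in cluster 7 and 5.15 in sgCPT1A and 3.56 in sgVC in cluster 12, but 2.37 in sgCPT1A and 2.77 in sgVC in cluster 13. Subtracting neutrophil RNA turned the T-like ratio to -0.08. In dendritic-like cluster 14 the balance was 2.54 in sgCPT1A and 2.05 in sgVC.

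In monocyte/macrophage-like cells the balance was 6.02 in sgCPT1A and 4.57 in sgVC (log2 ratio 0.40, 0.30 to 0.50), or 0.23 after subtracting neutrophil RNA. In fibroblast-like cells it was 5.61 in sgCPT1A and 3.86 in sgVC (0.54, 0.46 to 0.62), or 0.42 after subtraction. There the 3 inhibitors were nearly level while the summed subunits had 307 CPM in sgCPT1A and 478 CPM in sgVC, and Nfkbia per Nfkb1 UMI was 11.1 in sgCPT1A and 5.94 in sgVC. Pericyte or smooth muscle-like cells had 4.55 in sgCPT1A and 5.16 in sgVC, with an interval that included no difference, tumour-like sgVC cells had 5.36, and the Epcam-high sgCPT1A cluster 3.66.

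Nfkbia supplied 93.0% to 98.1% of the 3 inhibitors' UMIs in every class and library. Without it, Nfkbib and Nfkbie per subunit UMI were 0.381 in neutrophil-like sgCPT1A cells and 0.383 in sgVC cells, and 0.112 in fibroblast-like sgCPT1A cells and 0.107 in fibroblast-like sgVC cells. All 6 log2 ratios then had intervals that included 0, so no difference in balance beyond counting error was seen without Nfkbia.

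**Figure D4:**
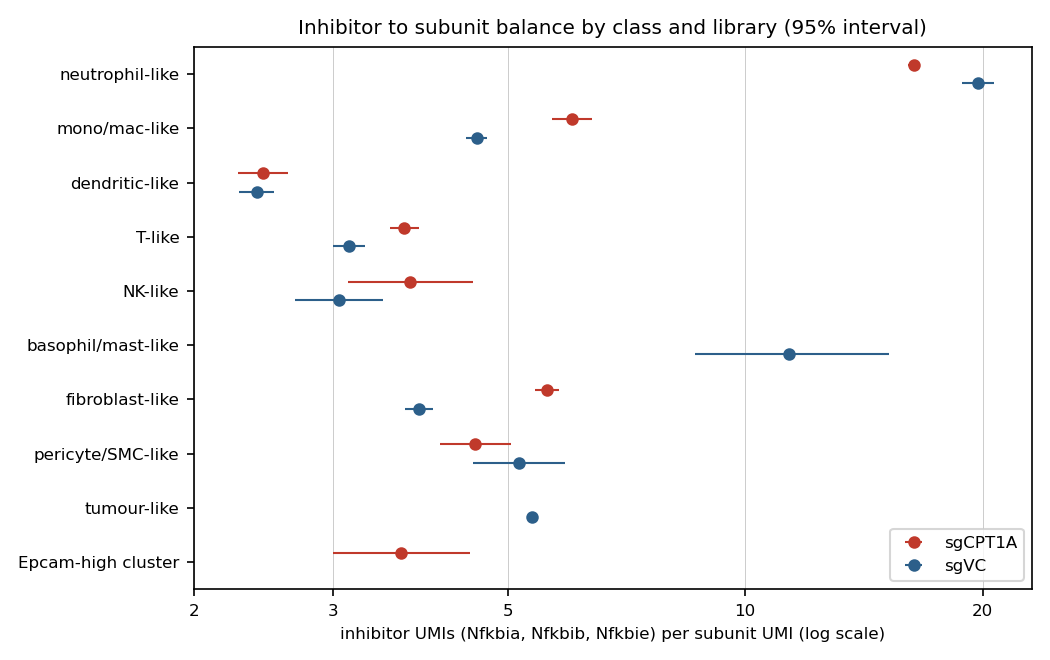
UMIs of Nfkbia, Nfkbib and Nfkbie per UMI of the 5 subunits (log axis) by cell class, sgCPT1A (red, upper) and sgVC (blue, lower), with 95% intervals. The sgCPT1A value is lower in neutrophil-like cells (16.4 against 19.7 in sgVC) and higher in monocyte/macrophage-like, T-like and fibroblast-like cells.

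The make-up of the subunits differed between the classes. In blood-derived classes Rel ran from 17.9% of subunit UMIs in basophil or mast-like sgVC cells to 41.5% in dendritic-like sgCPT1A cells, with 39.9% in dendritic-like sgVC cells. In stromal and epithelial classes it ran from 5.44% in fibroblast-like sgVC cells to 10.4% in tumour-like sgVC cells. In fibroblast-like cells Nfkb1 alone made up 49.4% in sgCPT1A and 63.1% in sgVC, and Rel 8.17% and 5.44%. Rela was at most 8.67% in neutrophil-like, monocyte/macrophage-like, dendritic-like, T-like and NK-like cells. It reached 16.9% in sgCPT1A and 18.6% in sgVC in pericyte or smooth muscle-like cells, and 21.7% in the Epcam-high sgCPT1A cluster.

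The noncanonical genes Nfkb2 and Relb took a larger share of subunit UMIs in sgCPT1A in 4 classes. In pericyte or smooth muscle-like cells the share was 43.8% in sgCPT1A and 27.4% in sgVC, a difference of 16.4 percentage points (8.95 to 23.5). In fibroblast-like cells it was 27.6% in sgCPT1A and 20.1% in sgVC (7.56 points, 5.48 to 9.61). There Nfkb1 was the subunit called lower (log2 ratio -0.99). The others were also below 0, with Relb at -0.27, Rela at -0.25, Nfkb2 at -0.08 and Rel at -0.05. Neither Nfkb2 nor Relb was thus higher in CPM in fibroblast-like sgCPT1A cells. In monocyte/macrophage-like cells it was 22.8% in sgCPT1A and 16.6% in sgVC (6.18 points), and in T-like cells 17.8% in sgCPT1A and 14.0% in sgVC (3.76 points). The difference in neutrophil-like cells was 1.02 points (-1.22 to 3.19), but their clusters differed in direction. The share was 36.0% in sgCPT1A and 30.9% in sgVC in cluster 2, and 20.5% in sgCPT1A and 25.1% in sgVC in cluster 6. Clusters 1, 5 and 8, with few sgVC cells, had 30.2%, 28.0% and 34.0% in sgCPT1A. In sgVC they had 38.4%, 28.0% and 28.3%. No interval was computed for these cluster differences. Dendritic-like cells had 25.8% in both libraries (-3.27 to 3.36 points). In dendritic-like cluster 14 the share was 19.5% in sgCPT1A and 14.9% in sgVC, with no interval computed for the difference.

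**Figure D5:**
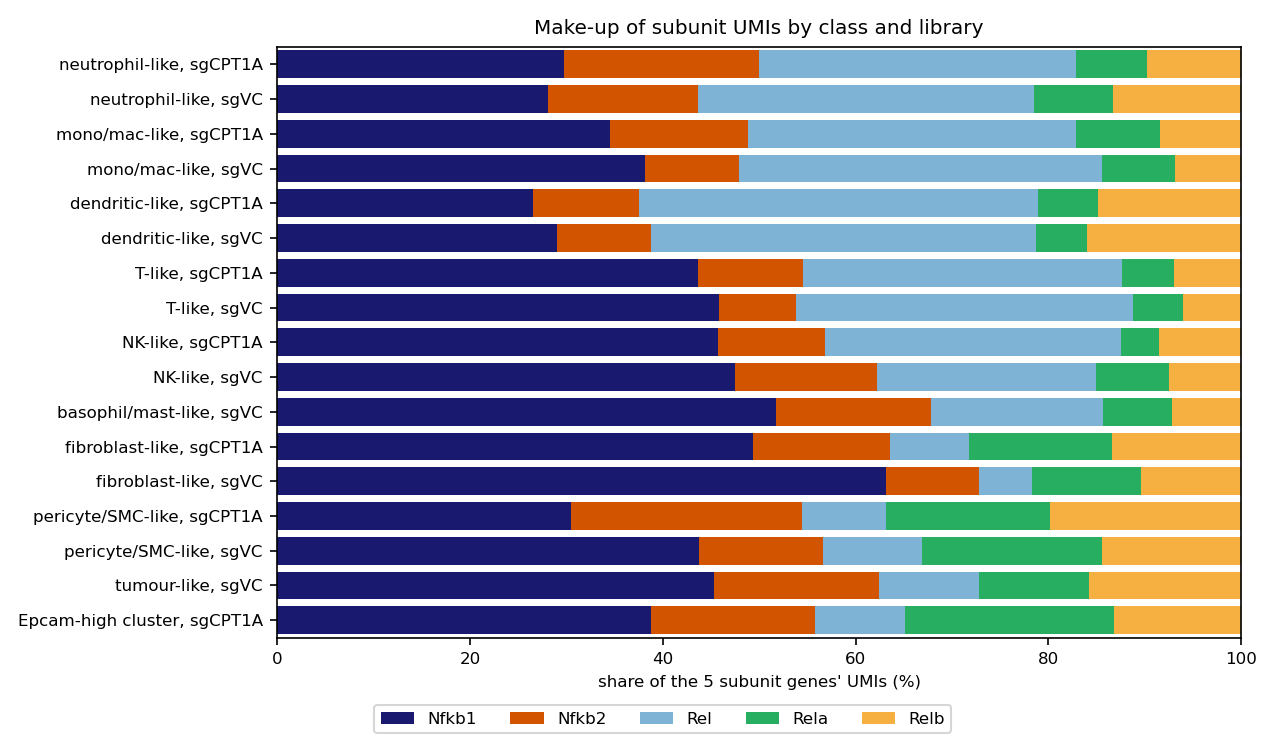
Share of each subunit gene in the UMIs of the 5 subunits (percent) by class and library, with the sgCPT1A bar above the sgVC bar of its class. Rel (light blue) is wide in blood-derived classes, and Nfkb1 (dark blue) is narrower in fibroblast-like sgCPT1A cells (49.4%) than in fibroblast-like sgVC cells (63.1%).

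Other genes of the pathway were counted from lists, and each median below stands beside the median of all genes in the class: -0.30 in neutrophil-like, -0.04 in T-like, -0.02 in fibroblast-like, -0.12 in monocyte/macrophage-like, 0.05 in pericyte or smooth muscle-like and -0.05 in dendritic-like cells. The members' own medians were 0.71, 0.31, -0.17, 0.33, -0.05 and 0.46 in the same order of classes. In that order 17.3%, 13.3%, 16%, 15%, 22.9% and 15.4% of all genes were higher. The shares of all genes lower were 35.9%, 14.3%, 13.5%, 25%, 18.6% and 20.4%. Of 12 genes of the IkB kinase complex and its upstream kinases, 11 were measured in neutrophil-like cells, with 1 higher and 1 lower in sgCPT1A (median log2 ratio -0.22 beside -0.30 for all genes). Ikbke, an IKK-related kinase, had 137 CPM in sgCPT1A and 35.9 CPM in sgVC (1.93), and Chuk, the gene of IKK alpha, had 12.0 CPM in sgCPT1A and 25.9 CPM in sgVC (-1.11). Ikbke was also higher in monocyte/macrophage-like cells, with 77.0 CPM in sgCPT1A and 36.7 CPM in sgVC (1.07). In fibroblast-like cells 0 of the 12 were higher or lower.

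Of 17 adaptors, 3 were higher and 3 lower in sgCPT1A among 14 measured in neutrophil-like cells (median 0.13). Malt1, the protease of the CARD-BCL10-MALT1 complex, had 564 CPM in sgCPT1A and 189 CPM in sgVC (1.58). Irak3, an inhibitory kinase of Toll-like receptor signalling, was higher in monocyte/macrophage-like cells (87.2 CPM in sgCPT1A and 16.4 CPM in sgVC, 2.41) and in fibroblast-like cells (100.5 CPM in sgCPT1A and 45.3 CPM in sgVC, 1.15). Receptors that feed the pathway had 4 higher and 1 lower of 9 measured in neutrophil-like cells (median 0.53), with Tlr2 at 415 CPM in sgCPT1A and 181 CPM in sgVC (1.20). They had 5 higher and 0 lower of 11 in monocyte/macrophage-like cells (median 0.30), with Tnfrsf1b, a TNF receptor gene, at 231 CPM in sgCPT1A and 86.6 CPM in sgVC (1.42). In dendritic-like cells 4 of 6 were higher (median 0.81), among them Cd40, which had 180.3 CPM in sgCPT1A and 89.5 CPM in sgVC (1.01). Tlr2 was also higher there, with 54.8 CPM in sgCPT1A and 12.2 CPM in sgVC. Of these, neutrophil RNA would supply 15.6 CPM in sgCPT1A and 1.26 CPM in sgVC at the marker shares.

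Other negative regulators did not share 1 direction. Tnfaip3, the gene of the ubiquitin editor A20, had 1842 CPM in sgCPT1A and 1500.3 CPM in sgVC in neutrophil-like cells (log2 ratio 0.30), but 93.1 CPM in sgCPT1A and 180.0 CPM in sgVC in fibroblast-like cells (-0.95). In fibroblast-like cells 0 of 12 measured were higher and 3 lower (median -0.28), and in pericyte or smooth muscle-like cells 1 of 12 was higher and 5 lower (median -0.49). In neutrophil-like cells 2 of 13 were higher and 3 lower (median 0.29), with Traf1 at 731 CPM in sgCPT1A and 293 CPM in sgVC (1.32).

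Of 23 NF-kB induced effector genes, 22 were measured in neutrophil-like cells, where 12 were higher and 1 lower in sgCPT1A (median 0.68). Cxcl10, a chemokine gene, had 1895 CPM in sgCPT1A and 693 CPM in sgVC (1.45), whereas Il1b was level at 18762 CPM in sgCPT1A and 19762 CPM in sgVC (-0.07). In T-like cells 12 of 22 were higher and 1 lower (median 0.62), and neutrophil RNA moved with them. Cxcl2 had 3547 CPM in sgCPT1A and 177 CPM in sgVC in T-like cells, and the marker shares of 4.16% and 0.343% would supply 3512 CPM in sgCPT1A and 202 CPM in sgVC. Il1a had 161 CPM in T-like sgCPT1A cells and 1.48 CPM in T-like sgVC cells, where 154 and 4.88 CPM would be supplied that way. For both genes the amount in T-like sgVC cells exceeded the level seen, so the marker share can overstate neutrophil RNA. Likewise, 3173 CPM of Cxcl2 would be supplied in dendritic-like sgCPT1A cells, where it had 2505 CPM. In monocyte/macrophage-like cells, where 8 of 23 were higher and 5 lower (median 0.16), Cxcl3 had 2219 CPM in sgCPT1A and 274 CPM in sgVC (3.02), of which 128 and 20.6 CPM would be supplied by neutrophil RNA.

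Genes whose level ran most like the members' were named over the 14 class and library sums with at least 50 cells, among 7104 genes, as Pearson r of log2 CPM with a pseudocount of 10. The sums share 2 libraries, so r is a description. Nfkbia ran most like Dusp16 (0.98), Atg2a (0.97) and Tbk1 (0.97), and Rela most like Gucd1 (0.86), Marcks (0.74) and Slfn5 (0.73). Among the members, Nfkbia and Nfkbiz had the highest r with each other (0.93), followed by Nfkb2 and Nfkbie (0.90).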

How the data were processed

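Dissociated tumours were measured by 10x 3′ single-cell RNA sequencing in 2 libraries. The deposited matrices hold raw UMI counts, whole numbers for each gene in each barcode, made with Cell Ranger 7.1.0 per the file headers. The submitters' processing notes also name Seurat 4.1.0 and GRCm38. Whether intronic reads were counted is not given in the sources used here. The 10 genes and the pathway lists were chosen with earlier results of these data known.

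From the counts, barcodes with under 200 genes or over 20% mitochondrial UMIs were removed. Scrublet doublets were left out of sgVC (287). It called 0 in sgCPT1A, was treated as not having worked there, and removed none. Cells were clustered with scanpy 1.11.5 and leidenalg 0.10.2 at resolution 1 (30 components, 15 neighbours). For this, 2000 variable genes were chosen over both libraries together. The 10 genes, the Rn18s genes, Malat1 and Xist were barred from them, which left 1999. Of the 10 genes, 0 were among the variable genes. The 22 clusters were named from 18 marker sets. A set counted where at least 3 markers reached 2-fold over the median cluster and were found in at least 10% of the cells. Among such sets the highest mean log2 fold gave the name. A cluster so named tumour, in which at least 50% of cells held an Epcam UMI, was then set apart as Epcam-high epithelial. UMIs were summed per class and library and scaled to CPM. Intervals (95%) were exact Poisson for levels, Clopper-Pearson for shares and conditional binomial for ratios, in scipy 1.17.1. Only the ratio intervals were tried on simulated data. These were Poisson counts, the model the intervals assume, so the trial does not show how they do with uneven cells. With 1 library per group there was no test between samples. UMI totals were 35557125 in sgCPT1A and 155948212 in sgVC. Genes named outside the 10 were, in each list and class, among the 2 with the highest level or the 2 with the largest absolute log2 ratio, given at least 50 UMIs, and the 3 genes most like Nfkbia and Rela. Alternatives changed the filters, doublets, resolution, naming, free RNA, cell weights, depth and scaling.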

Additional observations from a re-analysis of the deposited data

Results flagged for a closer look

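Nfkb1 went opposite ways in 2 cell classes. Its log2 ratio of sgCPT1A over sgVC was 0.83 in neutrophil-like cells (334 CPM in sgCPT1A and 189 CPM in sgVC) and -0.99 in fibroblast-like cells (152 CPM in sgCPT1A and 302 CPM in sgVC), a gap of 1.82 on the log2 scale. The gap was not tested, since each group had 1 library.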

How the results depend on the processing

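Counting intervals leave out variation between tumours, which 1 library per group cannot show, and genotype, library depth and RNA quality cannot be told apart. No paired analysis was possible because each group had 1 library. Of the members' log2 ratios under the alternatives, 520 stayed within their counting interval and 110 did not. Of the differences in Nfkb2 and Relb share 53 did and 5 did not. These counts include an alternative that kept the 10 genes among the variable genes. Since 0 of them were variable, its values could not differ from the main ones and were fixed in advance. Where a value differed, the cause was not tested. Under the stricter filter the pericyte or smooth muscle-like class had too few sgVC cells for a value.

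Members higher in T-like cells numbered 0 with doublets kept, at resolution 0.5, with free RNA subtracted at 5%, with every cell weighing the same and with neutrophil RNA subtracted (chosen after seeing the data), and 1 with cells thinned. With cells named from their own markers the count higher was 8 in monocyte/macrophage-like, 8 in pericyte or smooth muscle-like and 6 in dendritic-like cells, and the count lower was 1 in fibroblast-like cells. With free RNA subtracted the count lower was 4 in fibroblast-like and 4 in pericyte or smooth muscle-like cells, with 1 higher in pericyte or smooth muscle-like cells. With every cell weighing the same 1 was lower in fibroblast-like cells, and 1 was higher and 1 lower in pericyte or smooth muscle-like cells. With thinned cells 1 was higher in fibroblast-like and 0 in pericyte or smooth muscle-like cells. With median scaling 10 were higher in neutrophil-like and 4 in dendritic-like cells, and 1 was lower in pericyte or smooth muscle-like cells, as it was with neutrophil RNA subtracted.

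The log2 ratio of the balance of inhibitors to subunits was 0.27 in monocyte/macrophage-like cells with doublets kept. With cells named from their own markers it was 1.01 in monocyte/macrophage-like, 0.69 in fibroblast-like and 0.47 in pericyte or smooth muscle-like cells. With free RNA subtracted it was 0.11 in T-like, 0.33 in fibroblast-like and -0.48 in pericyte or smooth muscle-like cells. With thinned cells it was 0.52 in monocyte/macrophage-like, 0.36 in fibroblast-like and -0.35 in dendritic-like cells. With neutrophil RNA subtracted it was -0.079 in T-like (sign reversed), 0.42 in fibroblast-like, 0.23 in monocyte/macrophage-like and -0.21 in dendritic-like cells. Without Nfkbia it was -0.0076 in neutrophil-like, -0.023 in T-like and -0.065 in monocyte/macrophage-like cells (both signs reversed), 0.068 in fibroblast-like, 0.19 in pericyte or smooth muscle-like and -0.29 in dendritic-like cells.

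Without thinning, an Nfkbiz UMI was seen in 92.7% of neutrophil-like sgCPT1A cells and 72.0% of neutrophil-like sgVC cells. A Tnip1 UMI was seen in 40.9% of neutrophil-like sgCPT1A cells and 12.7% of neutrophil-like sgVC cells, and in 40.0% of monocyte/macrophage-like sgCPT1A cells and 18.3% of monocyte/macrophage-like sgVC cells.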
